A study of Solanum lycopersicum with 18 samples.

Results

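A group of 23 probe sets rose steeply in wild-type tomato fruit at the breaker stage, when colour first changes. In the ripening-inhibitor mutant rin their group means at 45 days lay within 2-fold of those at 35 days. These 23 probe sets were chosen by their measured signals among the 10101 probe sets of the Affymetrix tomato array that are not controls. Signals under 32 were raised to 32, log2 values were averaged over the 3 arrays of each group, and a member had to rise by 3 or more (8-fold) from 35 to 40 days in wild type. It also had to lie within 1 (2-fold) of its 35-day value at 45 days in rin. In all, 97 probe sets (0.96%) met the first condition, 89.3% met the second, and 23 met both. On this scale signals under 32 are raised at either age, so changes from or within such levels are understated. These values chose the members and are therefore given as a description with no test. The arrays of wild type at 45 days and of rin at 40 days took no part in the choice, and the only test reported sets these groups against each other.

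The tissue was pericarp, the fleshy fruit wall, of the variety Pusa Ruby, untreated, in 6 groups of 3 arrays. Wild-type fruit was sampled at 35, 40 and 45 days after planting (DAP), named in the labels as the immature green, breaker and red-ripe stages. Fruit of the rin mutant was sampled at the same ages, and the labels give it the same stage names although this mutant does not ripen normally. The labels give each array of a group its own plant, and some plant codes recur at other ages, so groups of different age may share plants. The labels do not state the origin of the mutant line, and their growth protocol mentions seedlings and shoots, not fruit.

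RIN encodes a MADS-box transcription factor that switches on the ripening programme of tomato. Ripening fruit makes a burst of its own ethylene through ACC synthases and ACC oxidases, softens as enzymes dismantle the cell wall, and gains carotenoids and aroma compounds. Fruit of rin lacks this programme in large part, stays firm and pale, and makes little ethylene.

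Some arrays stood apart. Replicate 1 of rin at 40 DAP correlated more closely with replicate 1 of rin at 45 DAP (r = 0.982 across probe sets) than with the other arrays of its own group (0.940 and 0.970). Replicates 2 and 3 of rin at 45 DAP correlated at 0.996, above the 0.929 to 0.988 of the other pairs within a group. Replicate 2 of rin at 35 DAP had a 3' to 5' ratio of control signals of 1.65 (mean log2), against -0.15 to 0.64 on the other 17 arrays. Of 3 genes taken as pericarp markers, 2A11 was bright on all 18 arrays (13420 to 21070) and TAGL1 lay between 560 and 1824, which fits the labelled tissue. GP1 went from 11920 to 12990 in wild type at 35 DAP to 35.2 to 153 at 45 DAP. In rin at 40 DAP GP1 was at 11060 to 13940. Its part in the members' differences was not tested. In whole pericarp, fewer cells of a type and less RNA per cell cannot be told apart.

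RIN itself was a member. In wild type its signals were 158, 62.5 and 236 at 35 DAP, 4911, 4020 and 4131 at 40 DAP, and 6929, 5527 and 5434 at 45 DAP. On all 9 rin arrays it lay between 5.11 and 9.27. The wild-type groups rose with age and the mutant was dark at every age, so the flat course of RIN in rin was a course below 32 throughout. The genotype labels were thus not contradicted on any array, although it was not determined whether the probes fall inside the part of the gene that the mutation alters. Between the groups left aside by the choice of members, RIN was at least 185-fold higher in wild type at 45 DAP than in rin at 40 DAP (limma, adjusted p = 3.38e-10). The fold was taken with signals raised to 32, while limma fitted signals not raised (9.86 on the log2 scale). Where a difference below is given as at least, its adjusted p likewise came from signals not raised. RIN was also 1 of 2 members whose arrays at 35 DAP lay wholly above those of rin (358 of 10101 probe sets, or 3.54%, did so), and there it was at least 4.15-fold higher. No member lay wholly lower in wild type at that age (4.49% of all probe sets did). The arrays of 35 DAP were used in the choice, so nothing is read from these counts.

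**Figure D1:**
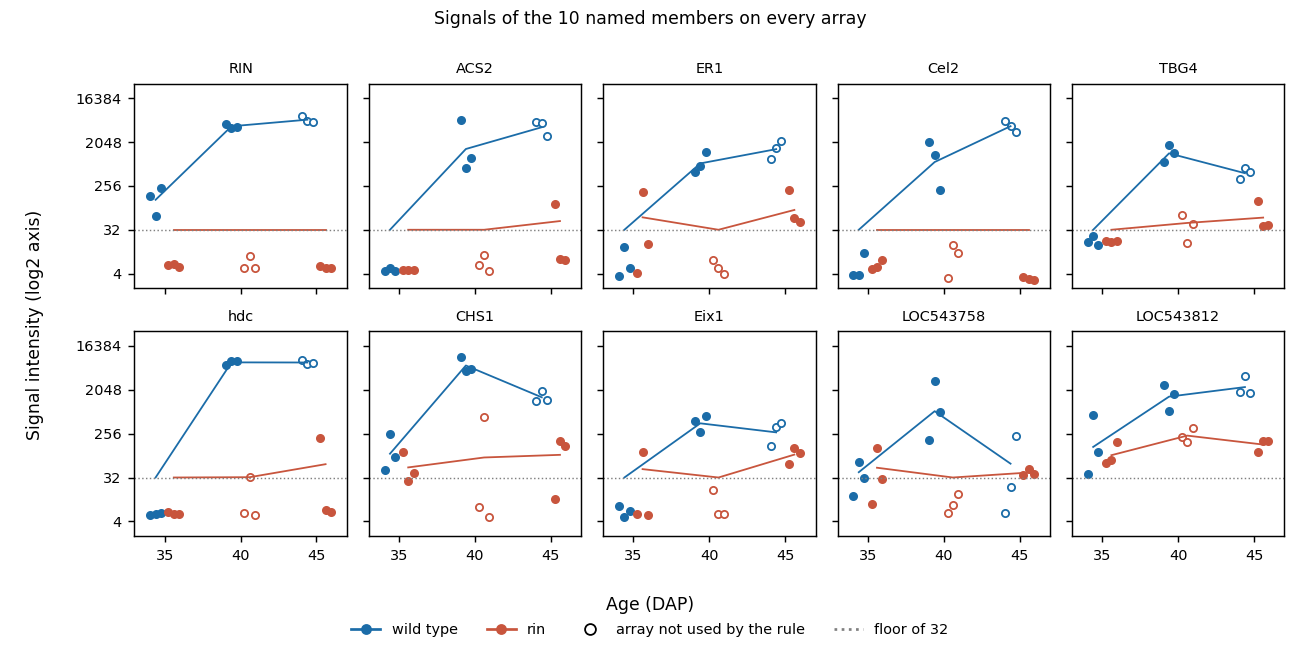
Signal intensity (log2 axis) of each of the 10 named members against age, with 1 point per array, wild type in blue and rin in red. Lines join the geometric means after raising signals under 32 to 32, and open points are arrays the choice of members did not use. RIN and Cel2 lie below 32 on all 9 rin arrays, whereas LOC543812 is above 32 on every array.

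ACS2 stands for the ethylene step. It encodes an ACC synthase of the ripening burst, which makes the direct precursor of ethylene. Its signals in wild type were 4.55, 5.32 and 4.54 at 35 DAP and 5718, 588 and 957 at 40 DAP. They were 5245, 5031 and 2696 at 45 DAP. Breaker arrays thus differed widely, with replicate 1 already at the red-ripe level, while the red-ripe arrays lay closer together. In rin, ACS2 lay between 4.50 and 9.44 on all arrays at 35 and 40 DAP, and at 110, 7.82 and 7.48 at 45 DAP. A single mutant array, replicate 1 at 45 DAP, was therefore above 32. ACS2 was at least 129-fold higher in wild type at 45 DAP than in rin at 40 DAP (adjusted p = 1.66e-06).

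ER1 encodes a proteinase inhibitor that responds to ethylene. It was below 15 on all wild-type arrays at 35 DAP, then reached 502, 654 and 1258 at 40 DAP and 908, 1571 and 2204 at 45 DAP. In rin its signals were 4.13, 188 and 15.9 at 35 DAP, 7.73, 5.14 and 3.97 at 40 DAP, and 216, 55.5 and 46.0 at 45 DAP. The mutant was thus dark at 40 DAP on all 3 arrays. At 35 DAP it was below 32 on 2 of 3 arrays, and at 45 DAP on none. The difference between wild type at 45 DAP and rin at 40 DAP was at least 45.8-fold (adjusted p = 2.70e-05). The high value at 35 DAP came from replicate 2, the array with the raised 3' to 5' ratio, and the part of that ratio in it was not tested. Without that array ER1 changed by 1.36 in rin from 35 to 45 DAP and was no longer a member.

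A pair of cell wall enzymes were members. Cel2, an endo-beta-glucanase of softening fruit and of organ abscission, had signals of 3.74, 3.76 and 10.4 in wild type at 35 DAP, 2065, 1132 and 215 at 40 DAP, and 5697, 4460 and 3241 at 45 DAP. It lay between 2.94 and 15.4 on all 9 rin arrays. No wild-type array at 40 DAP reached the level of any at 45 DAP, and no mutant array left the background. Cel2 was at least 136-fold higher in wild type at 45 DAP than in rin at 40 DAP (adjusted p = 2.48e-07).

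TBG4 encodes the beta-galactosidase that removes galactan from the wall of ripening fruit. It rose from 18.3, 24.0 and 15.2 to 790, 1787 and 1227 between 35 and 40 DAP in wild type and then lay at 357, 590 and 488. Unlike Cel2, its red-ripe arrays were all below its breaker arrays. In rin it was 18.7, 17.5 and 18.9 at 35 DAP, 64.2, 17.4 and 42.1 at 40 DAP, and 124, 37.8 and 39.4 at 45 DAP. It was thus above 32 on 5 of the 6 older mutant arrays, far below wild type. The difference between wild type at 45 DAP and rin at 40 DAP was at least 10.6-fold (adjusted p = 4.30e-05). TBG4 met the flat condition at 0.83 but changed by 1.13 without replicate 2 of rin at 45 DAP, and it was lost without replicate 3 as well.

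The gene listed as hdc, named for histidine decarboxylase, which turns histidine into histamine, had the steepest rise of the members. From 5.47, 5.62 and 5.89 at 35 DAP in wild type it reached 6637, 8044 and 8006 at 40 DAP, at least 235-fold higher by group means. It held 8248, 6841 and 7435 at 45 DAP. The switch between green and breaker fruit was complete and even across arrays, and the breaker and red-ripe arrays overlapped. In rin it lay between 5.53 and 6.25 on 5 of the 6 arrays at 35 and 40 DAP and at 33.5 on the remaining one, replicate 2 at 40 DAP. At 45 DAP its signals were 213, 6.91 and 6.21, with replicate 1 again the exception. Without replicate 2 or replicate 3 of that group hdc changed by 1.37 in rin and would not have been chosen. It was at least 230-fold higher in wild type at 45 DAP than in rin at 40 DAP (adjusted p = 3.87e-06).

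CHS1 encodes chalcone synthase, the entry enzyme of flavonoid synthesis. In wild type it was 45.2, 253 and 84.6 at 35 DAP, 9592, 5074 and 5626 at 40 DAP, and 1233, 1900 and 1267 at 45 DAP. It peaked at breaker, and its red-ripe arrays were all below those of breaker and above those of green fruit. In rin the arrays scattered widely, at 107, 26.6 and 40.1, then 7.94, 553 and 4.82, and finally 11.8, 185 and 139. The mutant therefore had high and dark arrays at both later ages, which its flat group means hide. The difference between wild type at 45 DAP and rin at 40 DAP was at least 4.12 on the log2 scale (adjusted p = 0.00515). It was at least 5.49 without replicate 2 of that rin group and at least 3.43 without replicate 1 or replicate 3.

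Eix1 encodes a receptor-like protein of the plasma membrane that binds a fungal xylanase and takes part in defence. It was below 9 on every wild-type array at 35 DAP, at 457, 276 and 580 at 40 DAP and at 141, 345 and 417 at 45 DAP. In rin it was 5.59, 105 and 5.46, then 18.1, 5.60 and 5.78, and at 45 DAP 61.7, 132 and 104. The mutant arrays of 45 DAP were all above 32, and Eix1 met the flat condition, at 0.99, with a high replicate 2 at 35 DAP. Without that array the change was 1.57. It is the array with the raised 3' to 5' ratio, and the part of that ratio was not tested. Eix1 was also lost without replicate 1 of rin at 45 DAP, where the change was 1.30. Eix1 was at least 8.51-fold higher in wild type at 45 DAP than in rin at 40 DAP (adjusted p = 0.00044).

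The remaining named members, LOC543758 and LOC543812, carry no role in the annotation used here. LOC543758 was a transient peak, at 187, 3111 and 706 in wild type at 40 DAP but 5.83, 20.4 and 229 at 45 DAP, and between 5.91 and 129 on the rin arrays. Its arrays of wild type at 45 DAP and rin at 40 DAP overlapped, and it was not called (adjusted p = 0.288). A second probe set of the same gene stayed below 32 on all 18 arrays, with its highest signal, 30.8, on the wild-type array where the member had its own highest. LOC543812 was never dark. It rose from 38.7, 625 and 105 to 2603, 735 and 1703 in wild type and then to 1843, 3879 and 1779, and it lay between 63.7 and 336 in rin. Its difference between wild type at 45 DAP and rin at 40 DAP was 3.32 ± 0.76 on the log2 scale (SE, n = 3 arrays a group, limma adjusted p = 0.00334). Without replicate 1 of wild type at 35 DAP its rise was 2.53 and it missed the first condition.

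Of the 23 members, 13 had no gene name in the annotation and are given by probe set. Les.3388.2.S1_at had the course of Cel2 and ACS2. It went from between 5.44 and 14.4 in green wild-type fruit to 1343, 778 and 341 at breaker and 6529, 5354 and 2961 at 45 DAP. In rin it was 42.0, 13.8 and 15.3 at 40 DAP and 85.7, 24.9 and 24.8 at 45 DAP. LesAffx.65152.1.S1_at varied little between arrays of a group, at 546, 617 and 626, then 774, 852 and 1039 in wild type. It was between 29.8 and 73.3 on every rin array. With signals raised to 32, these were the unnamed members with the largest difference between wild type at 45 DAP and rin at 40 DAP, at least 7.07 (adjusted p = 6.94e-07) and at least 4.17 on the log2 scale (adjusted p = 5.21e-08). Such bounds do not settle the order, since the fitted differences of signals not raised were 6.07 for LesAffx.15004.1.S1_at, 4.26 for LesAffx.12670.3.S1_at and 4.21 for LesAffx.65152.1.S1_at. LesAffx.65152.1.S1_at was the other member whose arrays at 35 DAP were all higher in wild type, at 57.6 to 74.1 against 43.1 to 48.6.

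**Figure D2:**
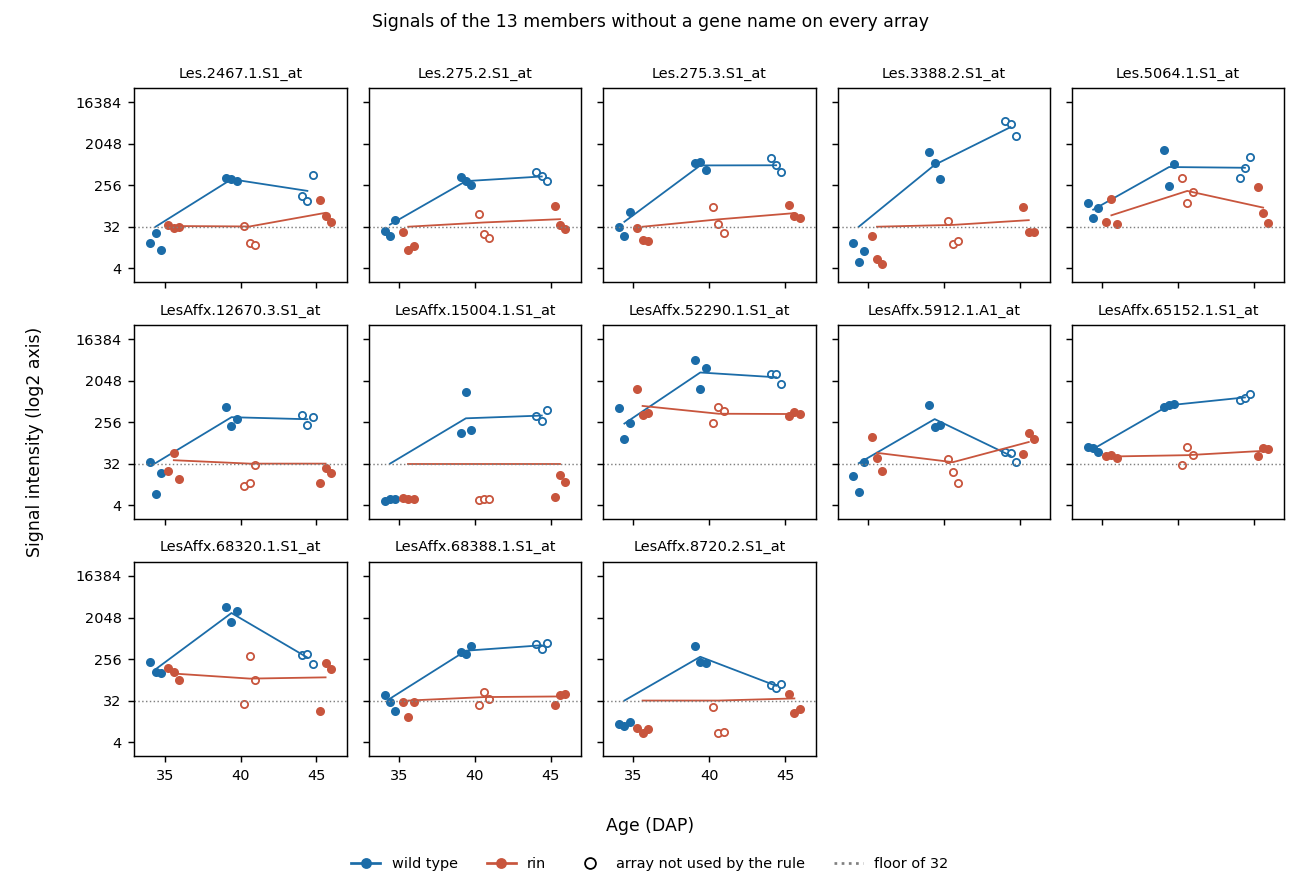
Signal intensity (log2 axis) of the 13 members without a gene name against age, with 1 point per array, wild type in blue, rin in red and open points for arrays the choice of members did not use. LesAffx.5912.1.A1_at, LesAffx.68320.1.S1_at and LesAffx.8720.2.S1_at peak at 40 DAP in wild type, and Les.3388.2.S1_at goes on rising.

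Les.275.2.S1_at and Les.275.3.S1_at share the first part of their names and may read the same transcript, so they are not independent. In wild type they were at 260 to 380 and 535 to 800 at 40 DAP and at 314 to 494 and 484 to 979 at 45 DAP. On each of these 6 arrays the second was brighter. The probe set of the formate dehydrogenase gene FDH carries the same name stem but was bright on all arrays, 1195 to 4444, and changed by 0.37 in wild type. Whether the members read a variant of it was not determined.

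Other members also had neighbours of the same name stem, described here after their values were seen. LesAffx.12670.3.S1_at was at 216 to 558 in wild type at 40 DAP, and LesAffx.12670.1.S1_at moved with it at lower signal, to 253, 110 and 112, a rise of at least 2.19 that missed the first condition. LesAffx.12670.2.S1_at changed by 0.06. LesAffx.8720.1.S1_at likewise rose by at least 1.56 beside the member LesAffx.8720.2.S1_at. LesAffx.5912.1.S1_at lay between 3.65 and 4.21 on all 18 arrays, while the member LesAffx.5912.1.A1_at, which carries A in place of S, reached 205 to 589. Probe sets of the same stem thus shared a course in some cases and not in others.

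LesAffx.52290.1.S1_at was the only member above 100 on every array. It was at 1312, 358 and 405 in rin at 35 DAP, 241 to 554 at 40 DAP and 354 to 415 at 45 DAP. In wild type it rose from 518, 108 and 240 to 5717, 1332 and 3807, then 2821, 2832 and 1768. Green fruit of both genotypes overlapped, and the mutant drifted down by 0.58 while wild type rose by 3.69. LesAffx.15004.1.S1_at was its opposite, below 19 on all 9 rin arrays and on all green wild-type arrays. It was 149, 1158 and 172 at breaker and 353, 274 and 463 at 45 DAP in wild type. Les.2467.1.S1_at and LesAffx.68388.1.S1_at were low members, at 315 to 366 and 322 to 490 in wild type at 40 DAP.

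After breaker the members parted. From 40 to 45 DAP in wild type, 3 gained more than 1 on the log2 scale, 14 stayed within 1 and 6 lost more than 1. The gaining members were Cel2, ACS2 and Les.3388.2.S1_at (2.45, 1.49 and 2.73). Those that lost were CHS1, TBG4, LOC543758, LesAffx.5912.1.A1_at, LesAffx.68320.1.S1_at and LesAffx.8720.2.S1_at, by 1.36 (TBG4) to 3.59 (LOC543758). Of all 10101 probe sets, 2.3% gained and 4.73% lost more than 1. Since the members were chosen for high signals at 40 DAP, a lower value at 45 DAP is favoured by the choice, and these changes were not tested. LesAffx.68320.1.S1_at, like CHS1, peaked at breaker, with signals of 3550, 1653 and 2878, but its red-ripe level of 203 to 329 was closer to that of green fruit. In rin it was 27.3, 302 and 91.7 at 40 DAP and 18.9, 210 and 159 at 45 DAP, so that, as for CHS1, replicate 2 was the highest at both ages.

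At 45 DAP, 18 of the 23 members were still 3 or more above their level at 35 DAP in wild type. That age was no part of the choice, although the baseline was, and 1.19% of all probe sets were as high. The others were Les.2467.1.S1_at (2.59), LesAffx.8720.2.S1_at (1.07), LesAffx.68320.1.S1_at (0.85), LOC543758 (0.58) and LesAffx.5912.1.A1_at (0.54). Of the 74 probe sets that rose as much at breaker but were not flat in rin, 60 (81.1%) were as high, against 78.3% of the members.

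The groups that took no part in the choice were then set against each other. Wild type at 45 DAP exceeded rin at 40 DAP with non-overlapping arrays for 20 of 23 members, while 19.6% of all probe sets did so. In the model, 19 of 23 were called higher (adjusted p under 0.05), against 19.4% of the 7720 probe sets tested, and none was called lower. In either direction 37.3% of those tested were called. Of the 74 other probe sets that rose at breaker, 66 (89.2%) were called higher and 63 (85.1%) did not overlap. These counts are therefore not particular to the members. The members passed the filter on dim signals through their bright wild-type arrays, and this comparison joins genotype with 5 days of age. Markers of green tissue and epidermis were set beside these groups. The chlorophyll-binding protein gene CAB6A was at 4.60 to 10.1 in wild type at 45 DAP and 248 to 667 in rin at 40 DAP, while CAB4 overlapped (84.8 to 125 and 28.8 to 640). Of 3 lipid transfer protein genes taken as epidermal markers, ltpg1 was at 28.2 to 2113 against 9450 to 12030, and TSW12 (18.6 to 90.9 and 55.8 to 928) and LE16 (746 to 983 and 380 to 1259) overlapped. Their part in the members' differences was not tested. The median difference of the members was 3.40 on the log2 scale with signals raised to 32. It was 3.72 for the 74 others that rose at breaker and 0.00 over all probe sets. Among the members the difference ran from 0.47 for LesAffx.5912.1.A1_at to 7.85 for hdc. The model used signals not raised to 32. LesAffx.8720.2.S1_at was called there at 2.75, against at least 1.07 with signals raised. The members not called were LOC543758, LesAffx.5912.1.A1_at (adjusted p = 0.201), LesAffx.68320.1.S1_at (adjusted p = 0.14) and Les.5064.1.S1_at (adjusted p = 0.0935). The count was 19 also without replicate 1 of rin at 40 DAP. It was 20 without replicate 2, where LesAffx.68320.1.S1_at was called (adjusted p = 0.0302).

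Of the uncalled members, Les.5064.1.S1_at differed from the rest in rin at 40 DAP, where it was 364, 106 and 184, above or near wild type at 35 DAP (48.7 to 107). Its wild-type arrays at 45 DAP, 369, 595 and 1048, lay above those by a small margin at the lowest. It was the 1 member whose wild-type and rin arrays overlapped at 40 DAP, where 22 did not (11.8% of all probe sets did not, with wild type higher). The wild-type arrays of that age chose the members, so nothing is read from that count. Between wild type at 45 DAP and rin at 40 DAP, Les.5064.1.S1_at differed 3.19-fold (1.67 on the log2 scale, SE 0.755). In limma its p was 0.0423 before adjustment and 0.0935 after.

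The rin arrays of 40 DAP fill in the course between the ages used in the choice. From 35 to 40 DAP 21 of 23 members stayed within 1 in rin, against 95.6% of all probe sets, and 42 of the 74 other risers did (56.8%). The exceptions were Les.5064.1.S1_at, up by 1.76, and LOC543812, up by 1.34. The baseline of 35 DAP was used in the choice, and the other risers are those that were not flat in rin by 45 DAP, so the choice itself favours this contrast and nothing is read from it. Part of this flatness is the floor. On all 3 rin arrays of 35 DAP 11 of the members lay below 32, and 3 members (RIN, Cel2 and LesAffx.15004.1.S1_at) did so on all 9 rin arrays. Changes below that level cannot be seen in these values.

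**Figure D3:**
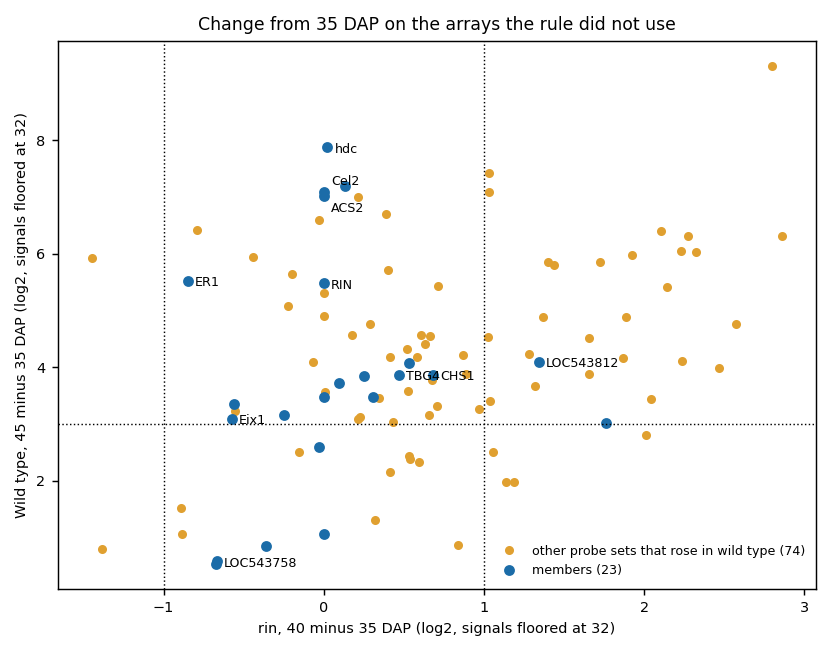
Change in wild type from 35 to 45 DAP (vertical) against change in rin from 35 to 40 DAP (horizontal), log2 with signals raised to 32, for the 23 members (blue) and the 74 other probe sets that rose in wild type (orange). Dotted lines mark 1, -1 and 3, and 21 members lie between the vertical lines.

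At 45 DAP the members were not equally silent in rin, and single arrays set the pattern. Replicate 1 was the brightest of its group for 10 of 23 members, among them ACS2, hdc, ER1 and TBG4, and replicate 2 for 8, among them CHS1 and Eix1. For CHS1, LesAffx.68320.1.S1_at and LesAffx.68388.1.S1_at (25.8 against 42.5 and 44.6) replicate 1 was the darkest instead and the only array below 32. It was also the darkest for LesAffx.12670.3.S1_at and LesAffx.15004.1.S1_at, where all arrays of the group were below 32. LesAffx.5912.1.A1_at was brighter in rin than in wild type at that age (50.9, 152 and 110 against 58.4, 54.2 and 34.2), with overlapping arrays. In all, 19 of 23 members had wild-type arrays of 45 DAP wholly above those of rin at the same age, as had 18.5% of all probe sets. The rin arrays there were used in the choice, so nothing is read from that count.

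**Figure D4:**
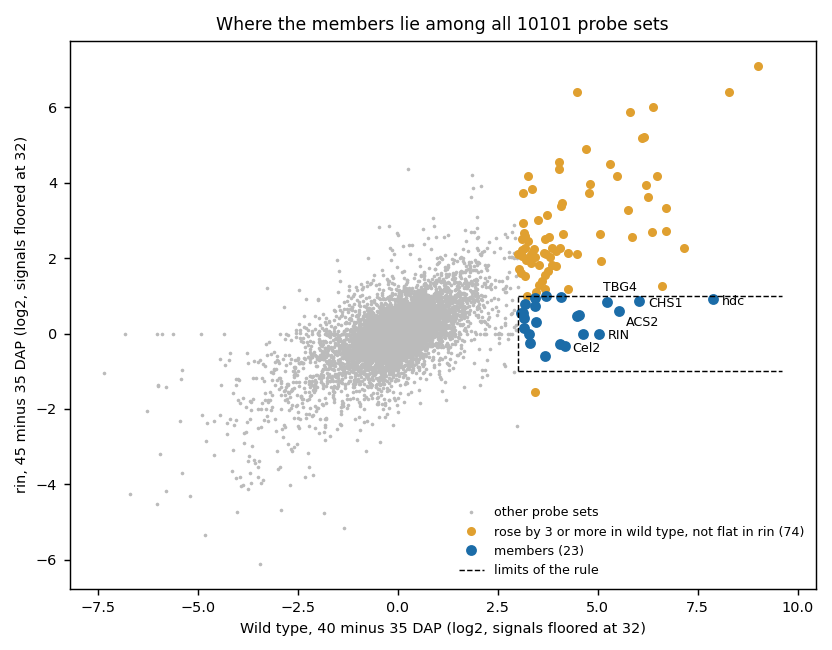
Change from 35 to 40 DAP in wild type (horizontal) against change from 35 to 45 DAP in rin (vertical), log2 with signals raised to 32, for all 10101 probe sets. Dashed lines show the limits that define the 23 members, and the 74 orange points rose by 3 or more in wild type but changed by more than 1 in rin, 73 of them upwards.

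With rin judged at 45 DAP, the members were a minority of the breaker response. Of the 97 probe sets that rose by 3 or more in wild type, 73 rose by more than 1 in rin by 45 DAP and 1 fell by more than 1. With rin judged at 40 DAP instead, 63 of the 97 stayed within 1. Probe sets with a gene name made up 10 of the 23 members (43.5%) and 20 of the 74 others (27.0%), against 9.0% of all 10101. Among the others, CYP85A1 was named on more than 1 probe set.

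Known genes of the ripening programme divided between these sets. Of 22 gene names compiled from the literature as targets of the RIN protein, 17 had a probe set and 12 rose by 3 or more at breaker. Only RIN, ACS2, Cel2 and TBG4 of these were members. The other 8 also rose in rin by 45 DAP. They were polygalacturonase PG2 (at least 7.11), mannanase Man4 (at least 6.42), alcohol acyltransferase AAT (at least 5.20), the ripening regulator NOR (at least 4.55), lipoxygenase loxC (at least 3.61), the ACC synthase ACS4 (at least 3.29), the ethylene receptor ETR3, listed as LOC544279 (2.03), and phytoene synthase Psy1 (2.02, on 1 of its 3 probe sets). ACS2 and ACS4, which act at the same step, differed by at least 5.53 and 5.76 between 35 and 40 DAP in wild type. In rin ACS4 differed by at least 3.29 between 35 and 45 DAP, and ACS2 was below 32 on all 3 arrays at the first age and on 2 of 3 at the second. Of the 17 genes 16 were called higher in wild type at 45 DAP than in rin at 40 DAP, against 19.4% of all probe sets tested, and none lower. The list rests partly on earlier studies of rin and was compiled with results of these data known.

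**Figure D5:**
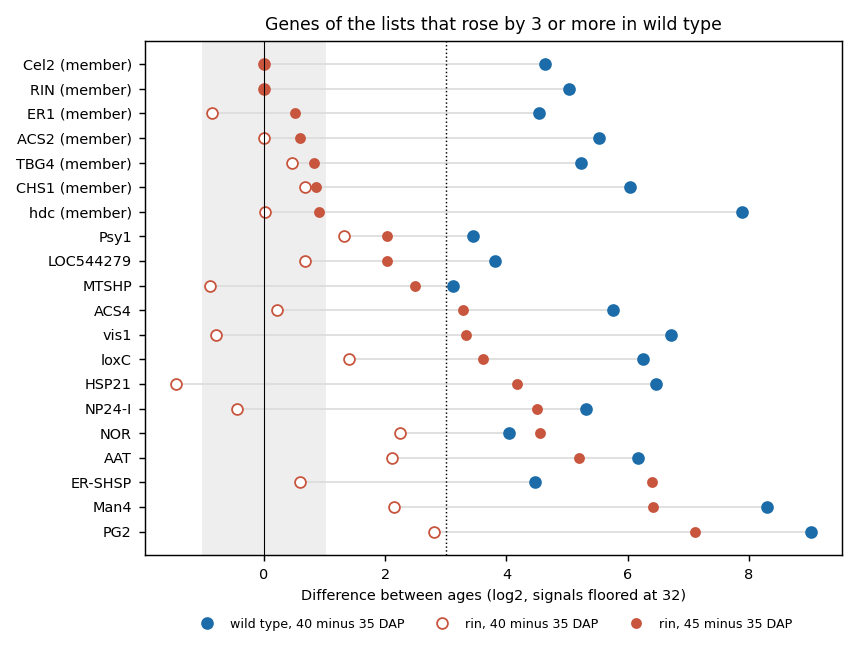
Change between ages (log2, signals raised to 32) for the 20 genes of the compiled lists that rose by 3 or more in wild type, with wild type from 35 to 40 DAP in blue, rin from 35 to 40 DAP as open red points and rin from 35 to 45 DAP as filled red points. The 7 members lie within the grey band of 1 on either side of 0, and the filled points of the 13 others lie between 2.02 and 7.11. The open points of RIN and Cel2 are hidden behind the filled points at 0.

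The pathway counts that follow stand against 19.4% of all tested probe sets called higher and 37.3% called in either direction. The cell wall list held 2 members among 34 genes, and 9 of its 28 tested genes were called higher in wild type at 45 DAP than in rin at 40 DAP and 5 lower. Ethylene synthesis held 1 member (ACS2) among 11, with 2 called higher and 4 lower of 10 tested. Ethylene perception and response held 1 (ER1) among 32, with 9 higher and 3 lower of 31 tested. Ripening regulators held 1 (RIN) among 6, with 3 higher and 1 lower. Flavonoid synthesis held 1 (CHS1) among 3, with 1 of 2 tested higher. Amino acid and amine metabolism held 1 (hdc) among 10, with 2 higher and 6 lower of 9 tested.

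The lists of carotenoid synthesis, aroma, sugar and acid metabolism, defence, heat shock and photosynthesis held no member. Called higher and lower in the same comparison were 6 and 1 of 13 carotenoid genes, 4 and 1 of 9 aroma genes, 4 and 7 of 15 sugar genes, 4 and 0 of 12 defence genes, 3 and 0 of 4 heat shock genes and 0 and 3 of 6 photosynthesis genes. The heat shock list matched 4 genes from 20 names, and all 4 rose by 3 or more at breaker in wild type (0.96% of all probe sets did). HSP17.4, which the list did not match, also rose by 3 or more there. By group means all 4 rose in rin by 45 DAP, by 2.50 (MTSHP) to at least 6.41 (ER-SHSP). The rin arrays of 35 and 45 DAP overlapped for MTSHP (73.2 to 1432 and 496 to 3460) and vis1 (6.18 to 166 and 165 to 1103).

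The limits of the choice run through a dense region. Just inside the flat limit lay Eix1 (0.99) and Les.275.3.S1_at (0.98), and just outside it LesAffx.46136.1.S1_at (1.002) and Les.2518.1.A1_at (1.105). Just inside the limit on the rise lay Les.5064.1.S1_at (3.08) and Les.275.2.S1_at (3.14), and just outside it Les.3319.2.S1_at and LesAffx.61398.1.S1_at (both 2.96). When each of the 12 arrays used in the choice was left out in turn, 10 members were kept every time, among them RIN, ACS2, Cel2 and LOC543758. The other 13 were lost at least once, including hdc, TBG4, CHS1, ER1, Eix1 and LOC543812.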

How the data were processed

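Total RNA was labelled with biotin and hybridised to the Affymetrix tomato array, per the labels' protocols. For each array the authors deposited linear intensity values, 1 for each probe set, made with GCOS per the submitters' processing notes. The version and the scaling target are not given in the sources used here. The arrays' trimmed means ran from 327.6 to 348.2, so the deposited intensity values were already scaled. Of 10209 probe sets 108 controls were left out. The members, the gene lists and the rule for named genes (all named members, extreme or borderline unnamed ones, and listed genes that rose) were chosen with earlier results of these data known. For the test, log2 signals of the 7720 probe sets above their array's 30th percentile on at least 3 arrays were fitted with limma 3.58.1 in R 4.3.3, as 6 group means over all 18 arrays with a variance trend. The contrast was two-sided, with Benjamini-Hochberg adjustment over all 7720. The fit used signals not raised to 32 and was tested on simulated data. Folds are ratios of geometric means after raising signals under 32 to 32, and "at least" is written where the dimmer group held such a signal. The number of arrays limits the precision. Alternatives covered the floor, scaling, filter, limits, pairing and single arrays. Gene names came from the platform annotation of 2007, which names 909 probe sets, updated through RefSeq (assembly SLM_r2.1) for 885. No sequences were used.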

Additional observations from a re-analysis of the deposited data

How the results depend on the processing

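The choice gave 23 members. With a floor of 16 or 64 it gave 27 and 17, of which 16 and 14 were shared with the 23. It gave 25 with quantile normalization and 26 with median centring, both holding all 23. With log2 of the signal plus 32 it gave 15, with a rise of 2 or 4 in place of 3 it gave 90 and 11, and with the median of the 3 arrays 27, of which 17 were shared. Alternatives added after seeing the data gave 10 with rin within 0.5, 42 with rin within 2, 63 with rin at 40 DAP in place of 45 DAP (21 shared), and 21 with replicates 2 and 3 of rin at 45 DAP averaged as 1 array (19 shared). Leaving out each array in turn gave 20 to 29. For wild type at 45 DAP against rin at 40 DAP, 19 members were called under every alternative run other than single arrays, and 19 to 20 when an array was left out. Over all probe sets 2876 were called, 2161 to 2753 when an array was left out and 1824 at adjusted p under 0.01. With the replicate number as a block the counts were 19 and 2833. Same-numbered arrays of these groups correlated in their deviations at 0.06, -0.03 and 0.11, so no pairing by number was seen between them. With 3 arrays a group this check cannot decide whether arrays share a batch. It did not cover plant codes that recur within a genotype. With 3 arrays a group and a floor of 32, changes below that signal were not detectable in the floored values. The test used signals not raised, so its differences rest in part on signals below 32.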
